A study of Homo sapiens with 6 samples.

Results

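The genes described here are 10 regulators and markers of the epithelial-mesenchymal transition (EMT): the transcription factors *ZEB1*, *ZEB2*, *SNAI1*, *SNAI2* and *TWIST1*, the cadherins *CDH1* and *CDH2*, the mesenchymal markers *VIM* and *FN1*, and the epithelial splicing regulator *ESRP1*. They were chosen by name from the 17471 genes listed in the expression table, and all 10 were listed. RNA-Seq was done on AN3CA, a human endometrial cancer line labelled as epithelial cells of the uterus, in 3 control libraries carrying the empty short-hairpin vector (shEV, labelled WT) and 3 carrying a hairpin against *PAX2* (shPAX2, labelled PAX2 KD), all after lentiviral transduction and puromycin selection. The study's text calls the AN3CA control scrambled in other assays, and the label is followed here. *PAX2* encodes a paired-box transcription factor of the developing female tract and kidney, and the comparison asks which transcripts differ once it is knocked down in a line that still makes it. Knockdown was by a single hairpin in a single line, so an effect of *PAX2* cannot be told apart from one of that hairpin, and nothing in the labels says that libraries of a group came from separate cultures, so p-values measure only the spread between these libraries. The values are TPM, a share of the library's transcripts corrected for gene length, so levels can be compared between genes.

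During EMT, epithelial cells loosen their junctions, lose apical-basal polarity and become motile. ZEB, SNAIL and TWIST proteins drive the program by binding E-box motifs in epithelial genes, foremost *CDH1*, which encodes E-cadherin. In the classical cadherin switch, E-cadherin gives way to N-cadherin, the product of *CDH2*, while vimentin filaments and fibronectin matrix increase. MicroRNAs of the miR-200 family hold ZEB transcripts down in epithelial cells, and ZEB proteins in turn repress the miR-200 genes.

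The miR-200 sequences are shown because their seeds define the sites counted below in both ZEB transcripts. The 5 mature miRNAs, from RefSeq on GRCh38.p14, carry 2 seeds (bases 2 to 8, in capitals), which differ at a single base. The first 3 share AAUACUG and the last 2 share AACACUG.
hsa-miR-200b-3p: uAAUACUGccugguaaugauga
hsa-miR-200c-3p: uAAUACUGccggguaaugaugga
hsa-miR-429: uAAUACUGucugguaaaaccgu
hsa-miR-200a-3p: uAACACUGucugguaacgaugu
hsa-miR-141-3p: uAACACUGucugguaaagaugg

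The 3′ untranslated region (UTR) of *ZEB1* held 6 matches to CAGTATT, the complement of the first seed, and 3 to CAGTGTT, the complement of the second, searched on the transcript strand of its 2540 bases. That of *ZEB2*, of 5370 bases, held 5 and 4, so each gene had 9 sites. Among 2396 other 3′ UTRs within 20% of the length of *ZEB1*, 26.4% held CAGTATT at least once and 28.1% held CAGTGTT, while 0 held as many as 6 of the first and 15 held as many as 3 of the second. Among 1158 near the length of *ZEB2*, the shares were 45.8% and 51.6%, and 0 and 14 held as many as *ZEB2*. Examples are given 5′ to 3′ on the transcript strand, from GRCh37, with the seed match in capitals. They come from *ZEB1* at chr10:31816553-31816574 and chr10:31816966-31816987 on the plus strand, and from *ZEB2* at chr2:145146550-145146571 and chr2:145146797-145146818 on the minus strand. A match is a run of letters and was not tested as a functional site.
ZEB1 first seed: tatcttatCAGTATTatcactc
ZEB1 second seed: atcagaatCAGTGTTtgtgatt
ZEB2 first seed: caatgcatCAGTATTatgattc
ZEB2 second seed: attttgtaCAGTGTTaaggcct

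Reads assigned to genes ranged from 10730909 to 18221859 in the shEV libraries and from 19422615 to 29405787 in the shPAX2 libraries, so depth and group cannot be told apart. *PAX2* itself was at 4.03, 3.66 and 2.74 TPM in shEV and at 0.916, 0.723 and 1.17 TPM in shPAX2, which is 26.9% of the shEV mean (log2 fold change -1.47, SE 0.18, adjusted p = 0.000294 by limma). Levels were compared with limma on log2(TPM + 0.5), which understates the change of low genes, over 13163 genes with at least 0.5 TPM in 3 or more libraries, and a gene passed at a Benjamini-Hochberg adjusted p under 0.05. Of all genes tested, 42.8% passed, 12.2% higher and 30.5% lower in shPAX2, and the median log2 fold change was -0.10. That downward tilt depended on the scale. With TPM rescaled by median of ratios the median was -0.00018 and lower genes made up 48.5% of those that passed, against 71.4% on TPM. Within the shPAX2 group, library 1 stood farthest from the other libraries (chi-square per degree of freedom 12.5 and 15.5, against 3.20 to 5.50 for the other pairs within a group and 33.4 to 61.0 between groups).

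The 10 genes spanned the whole range of the table. By mean TPM over the 6 libraries the order was *VIM*, *ZEB1*, *SNAI2*, *SNAI1*, *FN1* and then 5 genes (*CDH2*, *CDH1*, *TWIST1*, *ZEB2* and *ESRP1*) with no more than 7 reads in any library. The libraries of *VIM*, *ZEB1* and *SNAI2* did not overlap one another. Those of *SNAI1* and *FN1* did overlap, and no order is read among the last 5. Only 4 of the 10 (*ZEB1*, *SNAI1*, *SNAI2* and *VIM*) were expressed highly enough to be tested, and 1 of these, *SNAI2*, passed, beside the 42.8% of all genes. None of the 4 also reached a log2 fold change of 1 in either direction by limma on TPM or by limma-voom on reads, beside 4.54% of all genes by the first, although 2 had an unadjusted p under 0.05. The groups did not overlap for 2 of the 4, *VIM* and *SNAI2*, both lower in shPAX2, beside 39.0% of all genes with lower and 54.9% with any such separation. With 3 libraries against 3, an exact permutation test of a single gene cannot go below p = 0.1. In bulk RNA, fewer cells of a kind and less RNA per cell cannot be told apart.

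**Figure D1:**
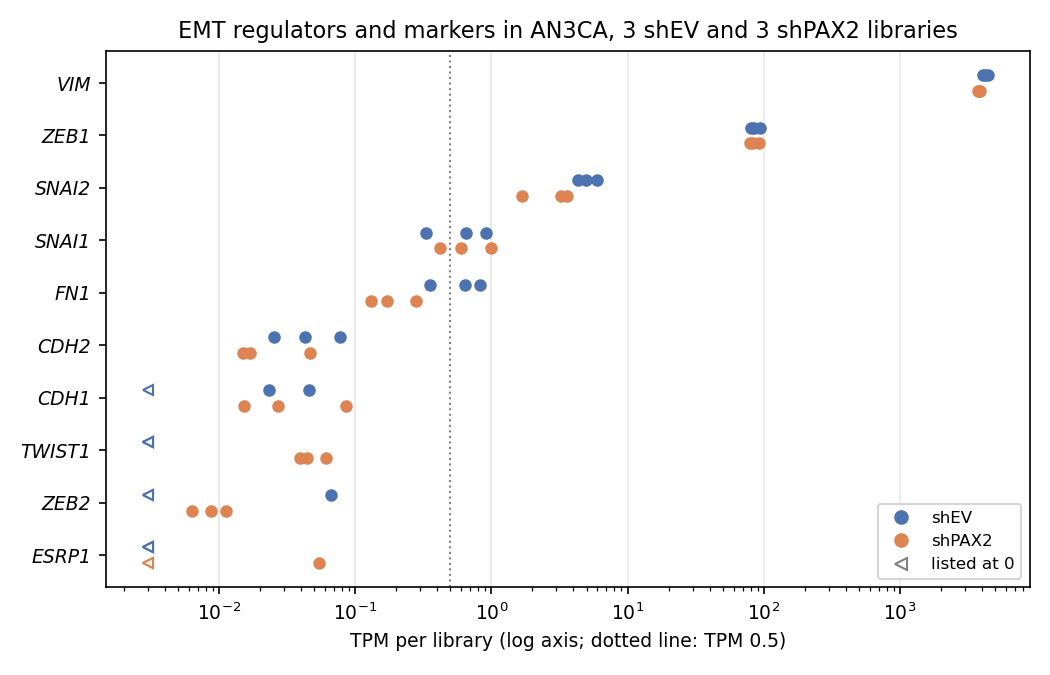
TPM of the 10 genes in each library, on a log axis. Points are single libraries, open triangles at the left edge mark libraries in which the gene was listed at 0, and the dotted line marks 0.5 TPM; *VIM* and *ZEB1* lie far to the right in all 6 libraries, and *CDH1*, *CDH2*, *TWIST1*, *ZEB2* and *ESRP1* lie under 0.1 TPM in all of them.

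Among the transcription factors, *ZEB1* was by far the most abundant. *ZEB1* (chr10:31607424-31818742, plus strand, GRCh37), a zinc-finger repressor of epithelial genes, was at 84.6, 80.2 and 94.1 TPM in shEV and at 79.4, 83.8 and 91.9 TPM in shPAX2. The groups overlapped throughout. The means were 86.3 ± 7.12 and 85.0 ± 6.33 TPM (SD, n = 3), and the log2 fold change of -0.02 (95% interval -0.20 to 0.16, adjusted p = 0.852 by limma) leaves room for a change of either sign within those bounds. It turned to 0.086 with median-of-ratios scaling, without passing the test. *ZEB1* stood at the 89.3rd percentile of the listed genes, with 2903 to 7766 reads a library.

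*ZEB1-AS1*, a noncoding gene that overlaps *ZEB1* on the opposite strand, was listed separately. It was at 7.66, 8.74 and 9.31 TPM in shEV and at 6.52, 5.77 and 6.34 TPM in shPAX2. All shPAX2 libraries were lower, with a log2 fold change of -0.43 (SE 0.10, adjusted p = 0.00760 by limma), a call lost with quantile normalization (-0.22, adjusted p = 0.101 by limma). Whether the counting used strand is not given in the sources used here, so reads where the genes overlap may not be separable.

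*ZEB2* (chr2), the paralog of *ZEB1*, was almost unread. It was read 0, 0 and 7 times in the shEV libraries and 2, 1 and 1 times in those of shPAX2, and its highest level was 0.0665 TPM in shEV library 3. No fold is given, since 5 of the 6 libraries were under 3 reads. The ZEB transcripts thus differed widely in level in every library. Their 3′ UTRs held 9 miR-200 seed matches each, over 2540 bases in *ZEB1* and 5370 in *ZEB2*. Any part of miR-200 in these levels was not tested. Of the miR-200 and miR-205 genes only *MIR141* was listed, with 1 read in shEV library 1 and none in the others. A library of long RNA does not measure mature miRNAs.

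*SNAI2* encodes SLUG, a SNAIL-family repressor. It was at 5.92, 4.29 and 4.99 TPM in shEV and at 1.67, 3.59 and 3.26 TPM in shPAX2 (chr8:49830157-49834299, minus strand, GRCh37). Every shPAX2 library was below every shEV library, with shPAX2 library 1 the lowest. The means were 5.07 ± 0.815 and 2.84 ± 1.02 TPM (SD, n = 3), so that *SNAI2* fell to 56.0% of shEV (log2 fold change -0.78, 95% interval -1.35 to -0.21, adjusted p = 0.0366 by limma, exact two-sided permutation p = 0.1). These levels rested on 67, 80 and 95 reads in shEV and 54, 102 and 67 reads in shPAX2, so the fall is one per unit of depth.

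The sign of the *SNAI2* difference held under all 15 alternatives computed for it, from -0.95 to -0.50, but it passed in 7 of them, with adjusted p from 0.0120 to 0.155 by limma. It did not pass with median-of-ratios scaling (adjusted p = 0.0536 by limma) or without shEV library 1 (0.106), shEV library 2 (0.0536), shEV library 3 (0.0915) or shPAX2 library 3 (0.0527). Without shPAX2 library 1 the difference was -0.50, and it passed (adjusted p = 0.0260 by limma).

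**Figure D2:**
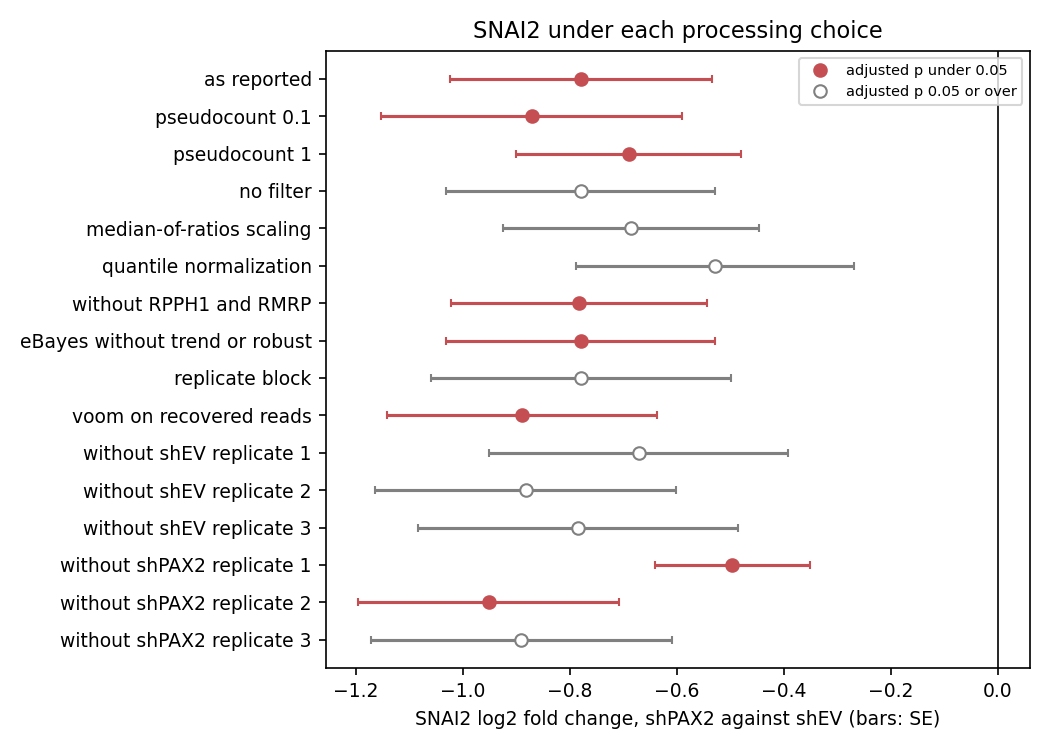
Log2 fold change of *SNAI2*, shPAX2 against shEV, as reported and under each alternative, with bars of 1 SE. Filled points passed at an adjusted p under 0.05 and open points did not; all points lie below 0, between -0.95 and -0.50.

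The genes whose log2 levels followed *SNAI2* most closely over the 6 libraries, among those with a mean of at least 5 TPM, were *IER2* (Pearson r = 0.997), an immediate early gene, *MSX2* (r = 0.994), a homeobox factor, and *ZBTB20* (r = 0.993), a zinc-finger repressor. These are descriptions over 6 points that share the group split and the depth of the libraries, for genes picked as the closest of all those compared. A high r does not mean a change of like size. *IER2* went from 63.2 to 57.2 TPM (log2 fold change -0.14) and did not pass (adjusted p = 0.0811 by limma). *ZBTB20* went from 9.45 to 7.61 TPM (log2 fold change -0.30, adjusted p = 0.0340 by limma). *MSX2* had the same log2 fold change as *SNAI2*, -0.78, from 92.4 to 55.3 TPM, but did not pass (adjusted p = 0.0671 by limma), except without shPAX2 library 1 (-0.51, adjusted p = 0.00266) and without the trend and robust settings (adjusted p = 0.0390).

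*SNAI1* (chr20:48599517-48605423, plus strand, GRCh37), which encodes SNAIL, was low. It was at 0.655, 0.332 and 0.909 TPM in shEV and at 0.421, 1.0002 and 0.601 TPM in shPAX2, from 6, 5 and 14 reads and from 11, 23 and 10 reads. The groups overlapped, and the log2 fold change of 0.06 had a 95% interval of -0.52 to 0.63 (adjusted p = 0.878 by limma). At 5 to 23 reads a library, a change smaller than those bounds was not detectable. *TWIST1*, a basic helix-loop-helix inducer of EMT, had 0 reads in each shEV library and 1 in each shPAX2 library, all under the 3 reads that a count of 0 allows.

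Neither cadherin of the switch was measurably expressed. *CDH1*, E-cadherin, was read 0, 1 and 2 times in the shEV libraries and 2, 1 and 4 times in those of shPAX2, with a highest level of 0.0851 TPM in shPAX2 library 3. *CDH2*, N-cadherin, was read 1, 3 and 1 times in the shEV libraries and 1, 1 and 2 times in those of shPAX2, with a highest level of 0.0777 TPM. Both cadherins were at or near the counting floor in both groups. For *CDH1*, 3 reads correspond to 0.0407 to 0.116 TPM across the libraries, so a difference below that level was not detectable. These limits cover counting error only, as reads without molecular identifiers are not independent molecules.

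Few other cadherins were expressed. Cadherins were counted here as genes named CDH and a number, so protocadherins and desmosomal cadherins were left out. Of 16 genes so named, *CDH1* and *CDH2* among them, 13 were under 0.5 TPM in every library. *CDH24* alone made up 82.5% of their summed mean TPM in shEV and 92.5% in shPAX2. *CDH24*, a type II cadherin named here after its values were seen, was at 18.4, 19.5 and 17.5 TPM in shEV and at 14.8, 14.6 and 14.3 TPM in shPAX2. It fell in every shPAX2 library (log2 fold change -0.33, SE 0.07, adjusted p = 0.00427 by limma), a call also lost with quantile normalization (-0.19, adjusted p = 0.0669 by limma). *CDH23*, a cadherin of hair-cell tip links, fell from 2.53 ± 0.299 to 0.794 ± 0.0898 TPM (log2 fold change -1.22, adjusted p = 0.000257 by limma). *CDH10*, singled out after its values were seen, was read 10, 33 and 29 times in the shEV libraries and not at all in any shPAX2 library. Its shEV mean of 0.854 TPM was 12.1-fold the mean TPM that a floor of 3 reads would give in shPAX2. That figure leaves out the spread of the shEV libraries (0.542 to 1.09 TPM). *CDH10* entered the test only through the shEV libraries, so these values are a description.

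The cytoplasmic partners of cadherins were abundant even so. *CTNNA1*, α-catenin, fell from 466 ± 8.53 to 410 ± 12.9 TPM (log2 fold change -0.18, adjusted p = 0.0244 by limma), and passed in 10 of 16 alternatives. Those that lost the call included median-of-ratios scaling (-0.08, adjusted p = 0.260 by limma). They also included the fits without shEV library 1, 2 or 3 or shPAX2 library 2 (adjusted p = 0.0558 to 0.0747 by limma). *CTNNB1*, β-catenin, was at 380, 346 and 351 TPM in shEV and at 318, 333 and 348 TPM in shPAX2, and did not pass (adjusted p = 0.189 by limma). Vinculin (*VCL*), which links catenins to actin, rose from 126 ± 9.98 to 185 ± 13.4 TPM (log2 fold change 0.55, adjusted p = 0.000676 by limma). *JUP*, plakoglobin, rose from 14.8 ± 0.295 to 17.1 ± 0.902 TPM (log2 fold change 0.20, adjusted p = 0.0402 by limma), a call lost when any 1 library was left out (adjusted p = 0.0511 to 0.128). In the list of cadherins and catenins, 10 of 18 tested genes passed, 2 higher and 8 lower. Of all genes, 42.8% passed, 12.2% higher and 30.5% lower. The list median was -0.15 beside -0.10 over all genes (list median -0.04 with median-of-ratios scaling). The 8 include *CDH10* and *CTNNA3*, which were under 0.5 TPM in every shPAX2 library and entered the test only through shEV. The list also holds genes that are neither cadherins nor catenins. Of these, *VCL* is among the 2 higher, and the nectin *PVRL1* and the catenin-binding *CTNNBIP1* are among the 8 lower.

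**Figure D3:**
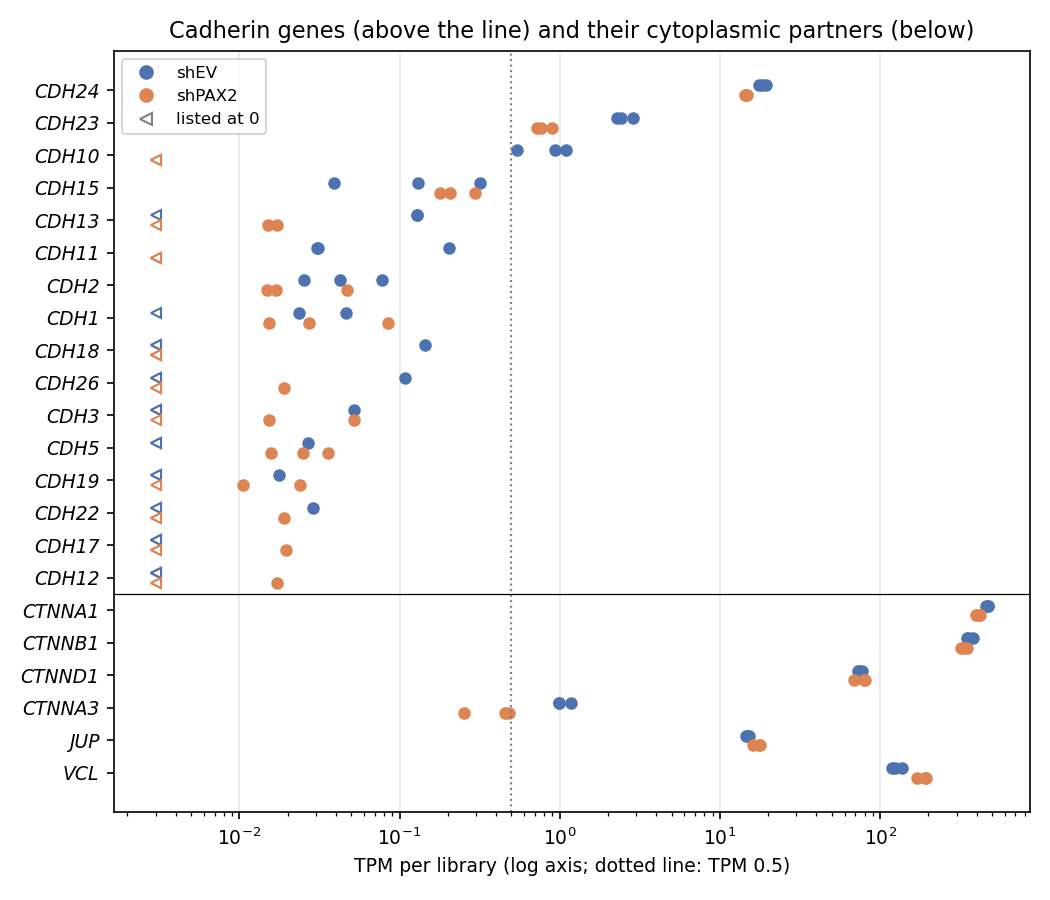
TPM per library, on a log axis, of the 16 listed cadherin genes named CDH and a number (above the line) and of catenins and vinculin (below). Open triangles mark libraries listed at 0; *CDH24* is the only one of these cadherins above 10 TPM, while *CTNNA1* and *CTNNB1* lie above 300 TPM in all 6 libraries.

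*VIM*, which encodes the intermediate filament vimentin, ranked 13 of the 17471 listed genes. It was at 4179, 4047 and 4410 TPM in shEV and at 3868, 3750 and 3807 TPM in shPAX2 (chr10:17270240-17279592, plus strand, GRCh37). All shPAX2 libraries were lower, at a mean of 90.4% of shEV (4212 ± 184 against 3808 ± 59.0 TPM, SD, n = 3). The log2 fold change of -0.14 (95% interval -0.27 to -0.02) did not pass after adjustment (adjusted p = 0.0683 by limma), and it was close to the median of all genes. It became -0.04 with median-of-ratios scaling. Over the 16 alternatives it ran from -0.17 to -8.9e-16, in effect no difference, and it never passed. With 47926 to 126443 reads a library, depth did not limit this value.

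*FN1*, fibronectin, a matrix glycoprotein, was low. It was at 0.643, 0.353 and 0.827 TPM in shEV and at 0.131, 0.281 and 0.171 TPM in shPAX2 (chr2:216225163-216300796, minus strand, GRCh37), from 31, 28 and 67 reads and from 18, 34 and 15 reads. Every shPAX2 library was below every shEV library, at a mean of 32.0% of shEV. With 2 libraries at or above 0.5 TPM, *FN1* missed the expression filter and was not tested with the others. In the fit with no filter, where 30.5% of 17471 genes passed and 21.8% were lower, its log2 fold change was -0.66 (SE 0.18, adjusted p = 0.0308 by limma). That call was lost without shEV library 1 (adjusted p = 0.0756), shEV library 3 (0.0745), shPAX2 library 1 (0.0805) or shPAX2 library 3 (0.0829), each by limma.

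**Figure D4:**
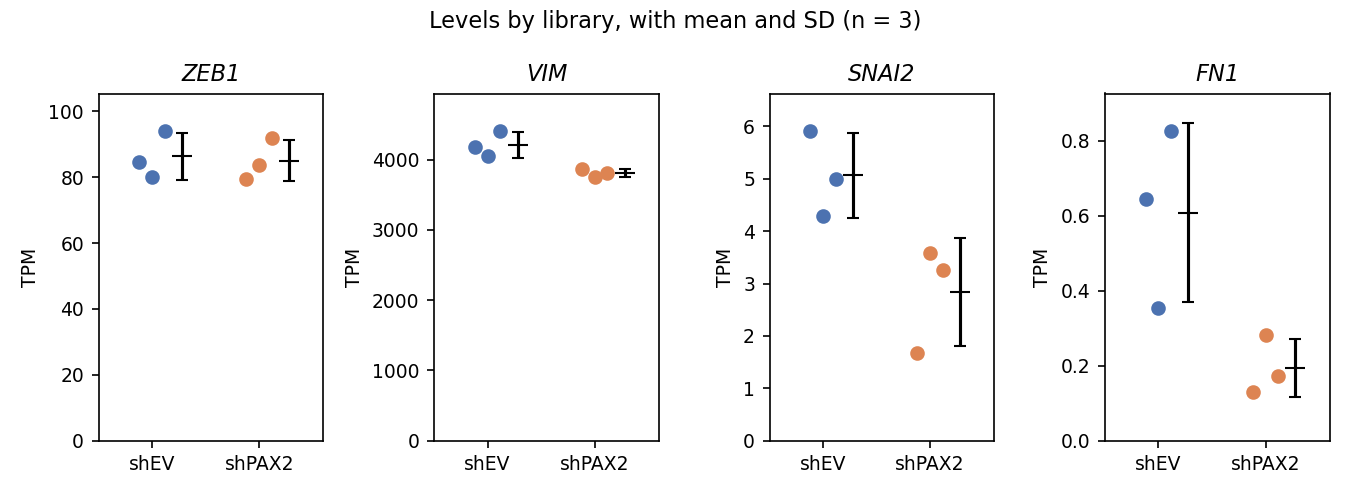
TPM of *ZEB1*, *VIM*, *SNAI2* and *FN1* by library, with the mean and SD (n = 3) beside the points, on linear axes that start at 0. The groups overlap for *ZEB1*; for *VIM*, *SNAI2* and *FN1* each shPAX2 point lies below each shEV point, with a mean of 90.4%, 56.0% and 32.0% of shEV.

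*ESRP1*, which directs epithelial exon choice, was listed at 0 in 5 libraries and at 0.0539 TPM in shPAX2 library 3, a value of a few reads at most. *ESRP2*, its paralog, did not exceed 7 reads. Other splicing factors were expressed. Of 16 tested genes of the EMT splicing list, 9 passed, 2 higher and 7 lower. Of all genes, 42.8% passed, 12.2% higher and 30.5% lower. The list median was -0.07 (0.03 with median-of-ratios scaling). The list mixes splicing factors with spliced targets, of which *FGFR2*, *ENAH* and *ARHGEF11* are among the 7 and *CTNND1* did not pass. *MBNL3*, a muscleblind splicing factor and 1 of the 7, was at 4.10 ± 0.569 TPM in shEV and 0.197 ± 0.0719 TPM in shPAX2. It entered the test only through the shEV libraries, being under 0.5 TPM in every shPAX2 library, so these values are a description. *QKI*, an RNA-binding protein active in mesenchymal splicing, fell from 47.1 ± 5.06 to 33.1 ± 1.92 TPM (log2 fold change -0.50, adjusted p = 0.00166 by limma), and *PTBP1*, a repressor of exon inclusion, rose from 173 ± 6.32 to 216 ± 7.998 TPM (log2 fold change 0.32, adjusted p = 0.00247 by limma). Gene levels cannot show which exons were used.

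The label of epithelial cells was set against marker genes. Of 8 epithelial markers 7 were listed, and 6 of these, including *CDH1*, *EPCAM* and *KRT8*, were under 0.5 TPM in every library. Only *KRT18* was above, and the 7 summed to 10.9 to 13.3 TPM in shEV and 12.3 to 18.0 TPM in shPAX2. Of 6 fibroblast markers listed, *COL1A1*, *COL1A2* and *PDGFRB* were above 0.5 TPM, and their list summed to 811 to 858 TPM in shEV and 362 to 441 TPM in shPAX2, while *PDGFRA*, *THY1* and *FAP* were below in every library. Nearly all of that sum was *COL1A2* (836 and 390 TPM on average). *COL1A1* (1.02 and 0.888 TPM, adjusted p = 0.717) and *PDGFRB* (1.04 and 0.724 TPM, adjusted p = 0.104) did not pass by limma. Endothelial markers summed to at most 0.0611 TPM, and leukocyte markers to 1.08 to 2.47 TPM, with *CD68* the only one above 0.5 TPM. The part of these markers in the differences was not tested.

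Wider lists of EMT genes moved in both directions. In the epithelial list, 29 of 45 genes listed were under 0.5 TPM everywhere, and 8 of 16 tested genes passed, 5 higher and 3 lower. Of all genes, 42.8% passed, 12.2% higher and 30.5% lower. The list median was 0.04, or 0.14 with median-of-ratios scaling. *AP1M2*, a clathrin adaptor of polarized cells, rose from 18.6 ± 3.36 to 44.9 ± 6.95 TPM (log2 fold change 1.25, adjusted p = 0.00127 by limma). The junction genes *OCLN* (occludin, 0.393 ± 0.0736 TPM in shEV and 1.55 ± 0.462 TPM in shPAX2) and *PKP2* (plakophilin 2, 0.299 ± 0.0225 and 1.38 ± 0.153 TPM) were under 0.5 TPM in every shEV library. They entered the test only through the shPAX2 libraries, where they were high, so their values are given as a description although both are among the 5. *RBM47*, an RNA-binding protein of epithelial cells, went the other way, from 10.0 to 4.41 TPM (log2 fold change -1.12, adjusted p = 0.000662 by limma). So did the polarity genes *INADL* (log2 fold change -0.36, adjusted p = 0.00633 by limma) and *LLGL2* (-0.43, adjusted p = 0.00505 by limma). Each of these polarity genes passed in 15 of 16 alternatives.

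In the mesenchymal list 13 of 22 tested genes passed, 5 higher and 8 lower, beside 12.2% higher and 30.5% lower among the 42.8% of all genes that passed, and the median was -0.19 (-0.11 with median-of-ratios scaling) beside -0.10 over all genes. *ACTA2*, smooth muscle actin, was at 77.3, 58.9 and 59.0 TPM in shEV and at 225, 307 and 355 TPM in shPAX2 (log2 fold change 2.16, adjusted p = 0.000824 by limma). *TPM1* (tropomyosin, log2 fold change 1.74) and *TAGLN* (transgelin, 1.05) rose with it (adjusted p = 0.00478 and 0.000746 by limma). Among fibrillar collagens, *COL3A1* rose from 35.1 ± 8.25 to 242 ± 6.14 TPM (log2 fold change 2.79, adjusted p = 0.000122 by limma), while *COL1A2* fell from 836 ± 24.3 to 390 ± 43.1 TPM (log2 fold change -1.11, adjusted p = 1.75e-05 by limma) and *COL5A1* fell from 17.8 to 6.34 TPM (log2 fold change -1.44, adjusted p = 4.05e-05 by limma). *S100A4*, a calcium-binding protein of motile cells, fell from 482 ± 127 to 131 ± 7.53 TPM (log2 fold change -1.85, adjusted p = 0.000817 by limma). The mesenchymal list thus had no common direction in these libraries.

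Of 18 tested genes in the list of other EMT transcription factors, 11 passed, 2 higher and 9 lower, beside the same 42.8% of all genes, 12.2% higher and 30.5% lower. The median was -0.21, or -0.10 with median-of-ratios scaling. *ID4*, an inhibitor of basic helix-loop-helix factors, rose from 36.3 ± 3.05 to 74.2 ± 5.05 TPM (log2 fold change 1.02, adjusted p = 2.39e-05 by limma). *FOXC1*, a forkhead factor, fell from 121 ± 7.42 to 87.1 ± 3.08 TPM (log2 fold change -0.47, adjusted p = 0.000548 by limma), and *HMGA2*, an architectural chromatin protein, fell from 36.97 to 27.6 TPM (log2 fold change -0.42, adjusted p = 0.00649 by limma). In the list of ZEB and SNAIL cofactors, 15 of 29 tested genes passed, 2 higher and 13 lower, beside the same shares of all genes. This list also holds kinases and genes of ubiquitin turnover. Of these, *FBXL14* is among the 2 higher, and *GSK3B*, *BTRC*, *FBXL5* and *PAK1* are among the 13 lower. The list median was -0.16, or -0.05 with median-of-ratios scaling. *CTBP2*, a corepressor bound by ZEB1, fell from 54.5 ± 2.52 to 40.4 ± 0.838 TPM (log2 fold change -0.43, adjusted p = 0.000553 by limma), and *KAT2B*, an acetyltransferase, from 9.61 to 4.65 TPM (log2 fold change -0.98, adjusted p = 0.000139 by limma). *HDAC2*, a histone deacetylase, rose from 41.6 ± 1.68 to 71.5 ± 1.36 TPM (log2 fold change 0.77, adjusted p = 1.76e-05 by limma). *ID4*, *HDAC2*, *FOXC1* and *QKI* lie on chromosome 6, where the median log2 fold change over 560 tested genes was 0.40 and that over 11050 genes elsewhere was -0.11. Its part in these results was not tested.

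Of all genes tested, 42.8% passed, 12.2% higher and 30.5% lower. In the intermediate filament list, with a median of 0.01 (0.11 with median-of-ratios scaling), 3 of 10 tested genes passed, all lower. They included *PRPH* (peripherin, from 249 ± 11.1 to 164 ± 25.0 TPM, log2 fold change -0.61, adjusted p = 0.00167 by limma) and *BFSP1* (filensin, from 3.66 to 1.43 TPM, log2 fold change -1.11, adjusted p = 0.000182 by limma). The other was *PLEC* (log2 fold change -0.22, adjusted p = 0.0440 by limma), which passed in 7 of 16 alternatives. It encodes plectin, a linker of filaments and not a filament protein. Of 12 keratin genes listed, only *KRT18* and *KRT10* were at or above 0.5 TPM. *KRT18*, a keratin of simple epithelia, was at 12.9, 10.4 and 10.2 TPM in shEV and at 11.9, 17.5 and 15.2 TPM in shPAX2, and the groups overlapped (log2 fold change 0.39, adjusted p = 0.0642 by limma). It passed in 6 of 16 alternatives, among them median-of-ratios scaling (0.49, adjusted p = 0.0254 by limma) and the fits without shEV library 1 (0.49) or shPAX2 library 1 (0.53).

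**Figure D5:**
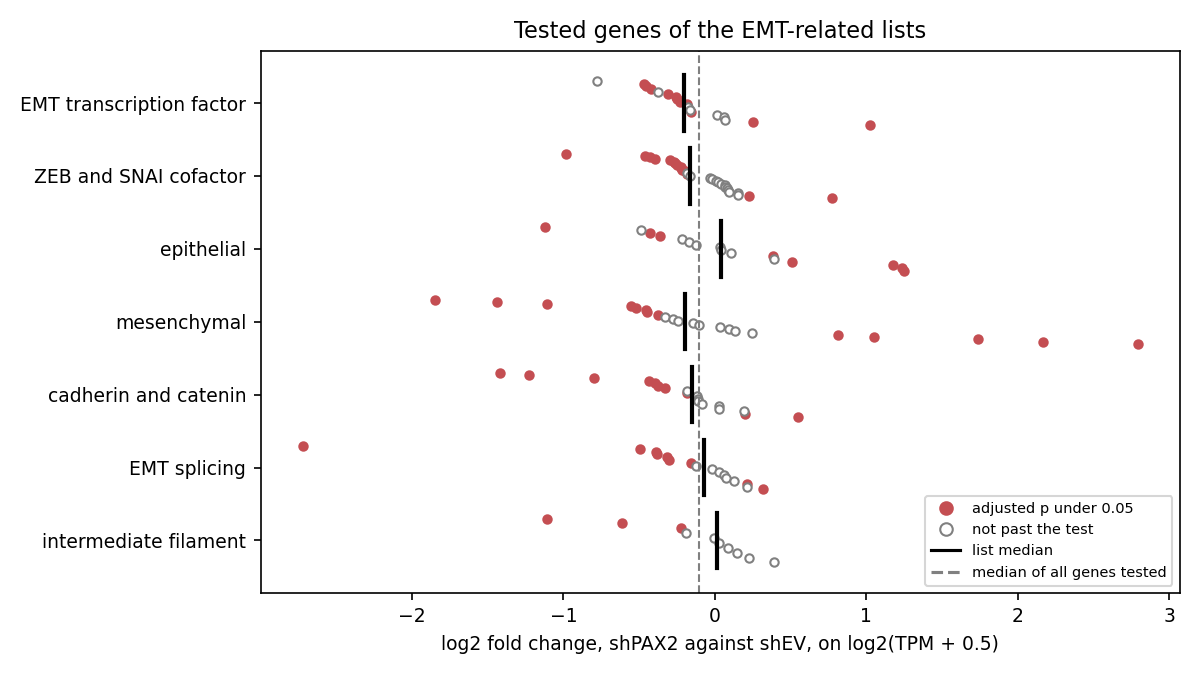
Log2 fold change of each tested gene of the EMT-related lists, shPAX2 against shEV, on log2(TPM + 0.5). Filled points passed at an adjusted p under 0.05, the black bars are list medians and the dashed line is the median of all genes tested, -0.10; the mesenchymal list spreads most widely, from *S100A4* at -1.85 to *COL3A1* at 2.79.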

How the data were processed

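The authors deposited 1 table of TPM values per gene for 6 AN3CA libraries, which the labels place in shEV and shPAX2. The submitters' processing notes name bcl2fastq, STAR, Subread, featureCounts and edgeR, and hg19. Versions, annotation and strand setting are not given in the sources used here. Columns were matched to samples by name.

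From these values the whole read numbers behind each gene were recovered. Ratios between libraries gave whole numbers for 100.0% of 17471 genes (largest relative deviation 7.15e-14), and gene lengths were scaled with GENCODE 44 on GRCh37. TPM is a share of each library's total, of which *RPPH1* and *RMRP* took 12.7 to 15.6%. Groups were compared with limma 3.58.1 in R 4.3.3 (trend and robust settings, two-sided), without a block. Scripts were tested on simulated data, where the share of unchanged genes among calls was above the nominal level. The genes and lists were chosen with earlier results of these data known, so their counts are descriptions. List genes were named by size of change, up to 4 per direction among those that passed with a mean of at least 0.5 TPM, with the 2 highest in mean TPM. Not all genes that the rule named are printed, and those printed were picked with their values known. Alternatives changed the pseudocount (0.1 or 1), filter (none or 5 TPM), scaling, moderation, block and libraries, or used limma-voom on recovered reads.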

Additional observations from a re-analysis of the deposited data

How the results depend on the processing

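The *PAX2* difference passed under every alternative computed, from -1.87 to -1.20. Of the 10 EMT genes, the count that passed went from 1 to 0 with the 5 TPM filter, which removes *SNAI2* from the test, with median-of-ratios scaling, with quantile normalization and when replicate numbers were fitted as a block, and ranged from 0 to 1 when a library was left out, being 0 without shEV library 1, 2 or 3 or shPAX2 library 3. For *SNAI2*, the adjusted p by limma was 0.0565 with no filter, 0.155 with quantile normalization and 0.0865 with the replicate block. *ZEB1* changed sign with median-of-ratios scaling (0.086) and, within a range of -0.078 to 0.043 with a library left out, without shEV library 3 or shPAX2 library 1. *SNAI1* changed sign without shEV library 2 or shPAX2 library 2 (range -0.15 to 0.23). Neither passed there. The *FN1* combinations were chosen after seeing the data. They ran from -1.59 to -0.42, and the call was also lost with the block (adjusted p = 0.0699) and with quantile normalization (0.0526), by limma. The other EMT transcription factors that passed numbered 6 rather than 11 with median-of-ratios scaling and with quantile normalization, and 5 to 10 with a library left out, being 5 without shEV library 2 and 6 without shEV library 3 or shPAX2 library 2. With a library left out, the ZEB and SNAIL cofactor list gave 8 to 14 passing genes. It gave 8 without shEV library 3 or shPAX2 library 2. The epithelial list gave 5 to 8 (5 without shPAX2 library 2) and the mesenchymal list 13 to 15. The cadherin and catenin list gave 5 to 9 (5 without shEV library 1 or 2, 6 without shEV library 3). The splicing list gave 5 to 10 (5 without shEV library 3) and the intermediate filament list 2 to 4. The epithelial count was 5 with the 5 TPM filter, and the intermediate filament count was 5 with median-of-ratios scaling and 7 with limma-voom. Among 56 other genes named by the rule or in the text, 17 lost and 6 gained significance under some alternative, and none of the 56 changed sign under those computed. Over all genes, 5629 passed, 5112 with the block and 3842 to 5658 with a library left out. Libraries of the same number deviated together with correlations of -0.05 to 0.08, so no pairing by number was visible. These values cannot show whether libraries of the same number were prepared together. The cause of these shifts was not tested beyond fewer genes or libraries entering a fit. Depth limits *SNAI1*, *FN1* and the genes under 10 reads, whose differences were not detectable or rest on few reads.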
